A study of Mus musculus with 6 samples.

Results

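The 9 mouse genes described here encode the ligands of the platelet-derived growth factor (PDGF) and vascular endothelial growth factor (VEGF) family: Pdgfa, Pdgfb, Pdgfc, Pdgfd, Vegfa, Vegfb, Vegfc, Vegfd and Pgf. They were chosen by symbol, not by their values, and all 9 were found among the 25302 rows of a table of gene expression. RNA had been sequenced from biliary epithelial cells (the bile duct epithelium) of mouse liver. The 3 Control samples carried the genotype Sox9fl/fl, and the 3 Sox9cKO samples Sox9fl/fl:AlbCre+/-, so floxed Sox9, a transcription factor gene, was common to all samples and the labels give Cre only to the Sox9cKO samples. AlbCre expresses Cre recombinase from the albumin promoter. Age and sex of the mice, and whether each sample is 1 animal, are not given in the sources used here. If samples shared a source, the p-values would measure technical spread only.

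PDGF and VEGF ligands are secreted dimers with a shared cystine-knot fold that bind receptor tyrosine kinases. PDGFs act mainly on mesenchymal cells through the receptors encoded by Pdgfra and Pdgfrb, and in the liver PDGF-BB is a well-known stimulus of hepatic stellate cells. VEGFs act on endothelium through the products of Flt1, Kdr and Flt4, and VEGF-A from bile duct cells is associated with the capillary plexus around the ducts. PDGF-A and PDGF-B are cut inside the cell by proprotein convertases, whereas PDGF-C and PDGF-D carry a CUB domain that a protease removes outside it.

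Pdgfb rose 1.98-fold in Sox9cKO and was the 1 ligand called with limma without a replicate block, from 1677 ± 171 to 3322 ± 282 normalized reads (SD, n = 3). Pdgfa, higher by 0.58 on the log2 scale, passed with limma only when the replicate number entered as a block. Pdgfc, lower by 0.51 (log2 fold change -0.51), did not pass. The other ligands, Vegfa included, did not pass in either fit, and Vegfd had too few reads to be tested. Normalized reads are read counts scaled by 1 size factor per library, and values by sample follow the order of replicates 1 to 3. Differences were tested with limma on log2(value + 1) for the 17153 genes with a mean of at least 10. A gene is called here when its Benjamini-Hochberg adjusted p-value, over all tested genes, lies under 0.05.

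Reads per sample numbered 11883496 to 16191990. Sox9 itself had 6043 to 6293 normalized reads in Control and 3165 to 3363 in Sox9cKO, so each library followed its label, and the transcript was reduced rather than absent (53.2% of the Control mean). All 12 biliary markers listed for the check were found, with Krt19 at 11480 or more in every library. Of these 12, 1 was called with limma, higher in Sox9cKO (2.03% of all tested genes were). An unadjusted limma p under 0.05 was found for 5 (17.8% of all). With limma and the replicate block 4 were called, 2 higher and 2 lower, and with DESeq2 3 were called (7.08% of all). Log2 fold changes were above 0 for 4 and below 0 for 8, with a median of -0.061. Endothelial markers varied 22.7-fold between libraries: the sum of 12 of them (Pecam1, Cdh5, Stab2 and others) was 11808, 38204 and 1736 in Control and 30159, 39492 and 6165 in Sox9cKO. Within each pair of equal replicate numbers the sum was higher in Sox9cKO, and all 12 log2 fold changes were above 0, with a median of 1.10. None of the 12 was called with limma, edgeR or DESeq2 (1 at an unadjusted limma p under 0.05), and 2, Egfl7 and Vwf, were called with limma and the replicate block (8.05% of all tested genes were). Xist, transcribed in female cells, had 31917, 32279 and 27852 normalized reads in Control replicates 1 and 3 and Sox9cKO replicate 1, and at most 10.2 in the other 3 libraries. Of 2 tested platelet markers and 11 tested mesenchymal markers none was called with limma, with 1 and 0 at an unadjusted p under 0.05 and 0 of either list with edgeR or DESeq2. Of the mesenchymal markers, 5 had log2 fold changes above 0 and 6 below, with a median of -0.15. Their sum, mostly Reln and Rgs5, was 3466 to 4242 normalized reads in Control and 4160 to 5838 in Sox9cKO.

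Promoter windows are shown for 3 members: Pdgfa and Pdgfc, which lay on opposite sides of Control, and Vegfa, the most abundant ligand. These 3 were picked after their values were seen, and none was called with limma without the block. RefSeq windows (build GRCm38.p6) matched 8 of the 9 members, and the one without was Pdgfb. Each sequence is the 250 bases before the annotated start, 5′ to 3′ on the coding strand. Capitals mark matches on either strand to the GC box GGGCGG, the hypoxia response cores ACGTG and GCGTG, the AP-1 site TGACTCA and the SOX core ACAAT. No pair of these motifs overlapped in the 3 windows.
Pdgfa, chr5:138994945-138995194, minus strand: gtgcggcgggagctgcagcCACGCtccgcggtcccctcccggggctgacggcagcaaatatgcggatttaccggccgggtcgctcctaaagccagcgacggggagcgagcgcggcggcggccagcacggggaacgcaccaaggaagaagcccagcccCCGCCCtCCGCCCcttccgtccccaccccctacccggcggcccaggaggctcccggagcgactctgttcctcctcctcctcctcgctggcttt
Pdgfc, chr3:81036166-81036415, plus strand: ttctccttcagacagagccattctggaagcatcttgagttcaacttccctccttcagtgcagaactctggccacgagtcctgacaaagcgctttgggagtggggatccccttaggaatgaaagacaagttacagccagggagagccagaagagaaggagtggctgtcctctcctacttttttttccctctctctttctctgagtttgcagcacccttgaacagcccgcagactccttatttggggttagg
Vegfa, chr17:46032378-46032627, minus strand: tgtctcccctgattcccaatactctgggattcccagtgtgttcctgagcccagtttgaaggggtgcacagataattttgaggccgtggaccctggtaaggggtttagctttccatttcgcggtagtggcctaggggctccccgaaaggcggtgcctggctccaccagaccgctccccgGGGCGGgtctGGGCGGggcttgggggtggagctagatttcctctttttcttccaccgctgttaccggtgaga

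The Pdgfa window held 2 GC boxes, 93 and 86 bases before the start, and 1 hypoxia core. The Vegfa window held 2 GC boxes at 72 and 62 bases, and that of Pdgfc held no match to any of the 4 motifs. GC content was 72.4%, 59.2% and 50.8% in Pdgfa, Vegfa and Pdgfc. Of 32851 windows of this length, 32.7% held a GC box, 38.6% a hypoxia core, 27.7% a SOX core and 4.46% an AP-1 site. A SOX core was absent from these 3 windows and present 133 bases before a second annotated start of Pdgfa. The window of a second annotated start of Vegfa held 2 hypoxia cores and 1 GC box. The bases after that start were not found in any GENCODE transcript of Vegfa, so this window may not be a promoter. These matches describe letters only and say nothing of binding.

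Pdgfb encodes the B chain of PDGF, the ligand of both PDGF receptors. It had 1564, 1594 and 1873 normalized reads in Control and 3602, 3327 and 3037 in Sox9cKO. Every Sox9cKO sample lay above every Control sample, and the gap between the groups was wider than the spread within either. On the log2 scale the difference was 0.99 ± 0.12 (standard error; limma, adjusted p 0.00826), which is 1.98-fold with a 95% interval of 1.62 to 2.42. Pdgfb was thus 1 of 8 tested members called higher, where 2.03% of all tested genes were. Leaving out Control replicate 1 gave a log2 fold change of 0.94 and ended the call (limma, adjusted p 0.0519).

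Endothelium is a known source of PDGF-B, so Pdgfb was set beside the endothelial markers. Control replicate 3 had the lowest endothelial sum of all libraries and the highest Pdgfb of the Control samples. Control replicate 2 and Sox9cKO replicate 2 had near-equal endothelial sums and Pdgfb values of 1594 and 3327. With the endothelial level as a covariate, Pdgfb differed by 1.01 on the log2 scale (limma, adjusted p 0.00828). With the Xist level as a covariate it differed by 1.03 (limma, adjusted p 0.01835). A covariate fit on bulk libraries cannot separate cell sources, so the part of endothelial RNA in the Pdgfb values was not tested.

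Macrophages and platelets, other known sources of PDGF-B, were examined through their markers. The summed macrophage and leukocyte markers had 1088 to 1224 normalized reads in Control and 1568 to 1844 in Sox9cKO. That sum was mostly Csf1r, with 780, 705 and 797 in Control and 1266, 1446 and 1638 in Sox9cKO (limma, adjusted p 0.0142). Csf1r was the 1 of 8 tested markers called, and it was higher (2.03% of all tested genes were). The other 7 tested markers, among them Lyz2, Cd68, Vsig4 and Cd5l, had log2 fold changes below 0. They were not called in this fit. With limma and the replicate block 2 markers were called, Csf1r higher and Lyz2 lower (5.06% and 2.99% of all tested genes were). The adjusted p of Lyz2 was then 0.0417 (limma). The median log2 fold change of the 8 was -0.85, and 4 had an unadjusted limma p under 0.05 (17.8% of all tested genes did). The pan-leukocyte gene Ptprc had 37.0, 36.2 and 19.6 in Control and 16.9, 12.3 and 1.13 in Sox9cKO, and Adgre1, which marks macrophages, at most 21.0 in any library. Summed platelet markers had 127 to 174 in Control and 103 to 124 in Sox9cKO. Most of that sum was Itga2b, with 103, 148 and 142 in Control and 79.6, 99.2 and 96.2 in Sox9cKO. Itga2b was lower in Sox9cKO without overlap (limma, adjusted p 0.279). Gp6, with too few reads to be tested, was also lower without overlap. Pf4, a further marker in the sum, had 10.9, 9.28 and 5.76 in Control and 19.9, 11.3 and 18.1 in Sox9cKO. Pf4 was higher without overlap (limma, adjusted p 0.341). Of all tested genes, 13.4% were higher and 10.8% lower without overlap. The part of these cells in the Pdgfb values was not tested.

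**Figure D1:**
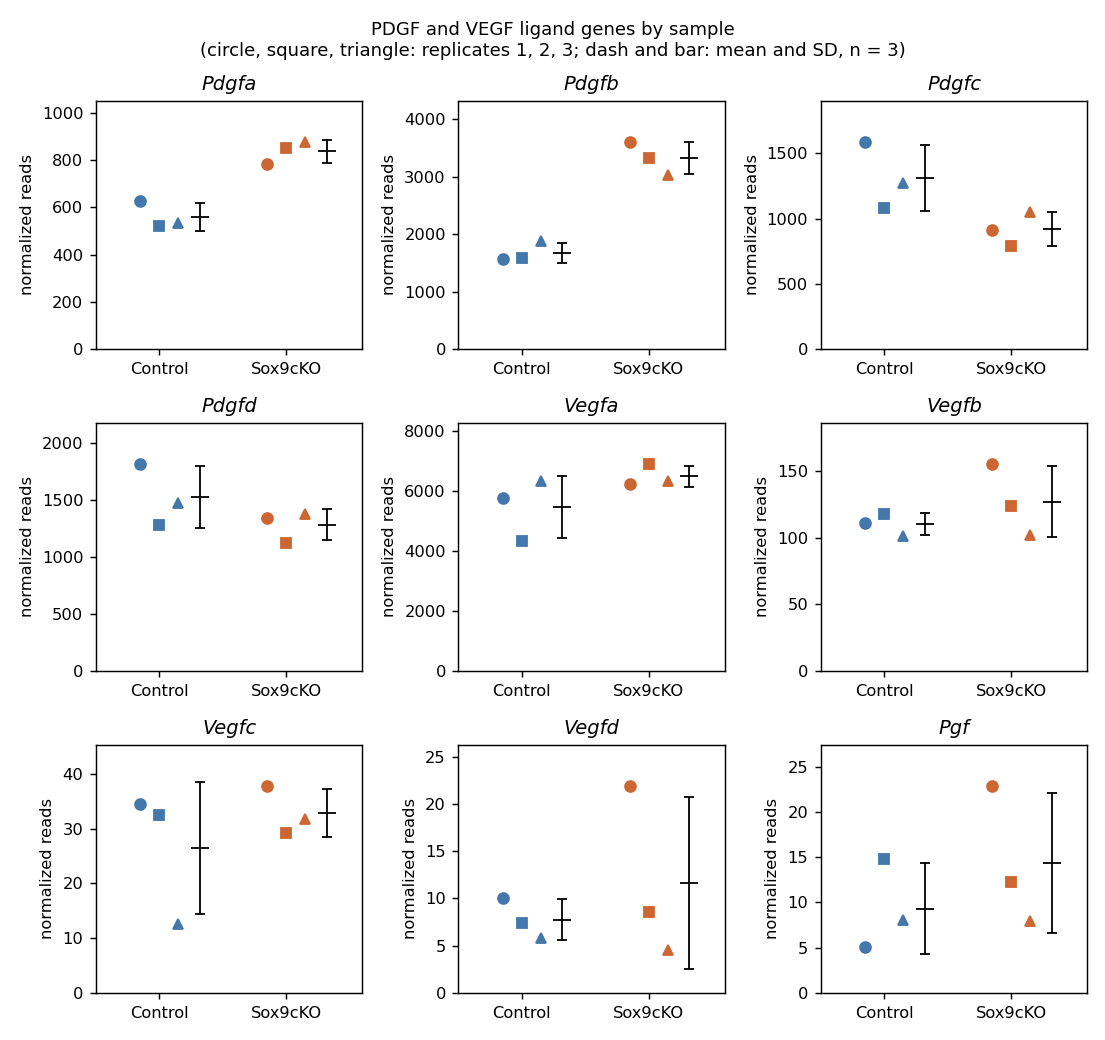
Normalized reads (vertical axes, linear from 0) of the 9 ligand genes in the 3 Control and 3 Sox9cKO samples, with mean and SD beside the points. The groups do not overlap for Pdgfb (1564 to 1873 against 3037 to 3602), Pdgfa and Pdgfc, and overlap for the other 6.

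The A chain gene Pdgfa, whose product binds the alpha receptor, showed a smaller difference in the same direction. It had 625, 520 and 532 normalized reads in Control and 782, 853 and 876 in Sox9cKO. The groups did not overlap, and Control replicate 1 was the Control sample nearest to Sox9cKO. On the log2 scale the difference was 0.58 ± 0.13 (standard error), with a limma adjusted p of 0.0607 without the replicate block and 0.0401 with it. Exons of Pdgfa overlap 6330403L08Rik on the opposite strand in GENCODE, and those of Pdgfc overlap Gm16000. Whether counting used the strand is not given in the sources used here, so reads of such pairs may not be separated.

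Neither ligand with a CUB domain was called. Pdgfc had 1585, 1084 and 1274 normalized reads in Control and 912, 794 and 1051 in Sox9cKO. The groups did not overlap, but the highest Sox9cKO sample lay close to the lowest Control sample. The log2 fold change was -0.51 with a 95% interval of -0.92 to -0.095 (limma, adjusted p 0.193; with the block 0.0612), so the call was not reached. Pdgfd had 1814, 1278 and 1472 in Control and 1340, 1126 and 1380 in Sox9cKO, with groups that overlapped and a difference of -0.24 on the log2 scale (limma, adjusted p 0.501). Over the 8 tested ligands, groups did not overlap for 2 with higher and 1 with lower values in Sox9cKO, while 13.4% and 10.8% of all tested genes did so.

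The count of called ligands differed between tests, and so did the background. It was 1 of 8 with limma (2.97% of all tested genes called), 1 with edgeR (2.86%) and 1 with edgeR and the block (6.76%). It was 2 with limma and the block (8.05%) and 2 with DESeq2 (7.08%), in both cases Pdgfb and Pdgfa. At an unadjusted limma p under 0.05 it was 3, against 17.8% of all tested genes. The median log2 fold change of the 8 ligands was 0.34, and that of all tested genes 0.036.

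Within a library, ratios between PDGF ligands also differed between the groups. The ratio of Pdgfb to Pdgfc was 0.987, 1.47 and 1.47 in Control and 3.95, 4.19 and 2.89 in Sox9cKO. Pdgfa relative to Pdgfc was 0.394, 0.479 and 0.418 in Control and 0.857, 1.08 and 0.834 in Sox9cKO. The ratio of Pdgfc to Pdgfd varied less, from 0.848 to 0.874 in Control and from 0.681 to 0.761 in Sox9cKO. These ratios were formed after the values were seen and carry no test.

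Vegfa, the principal ligand of VEGF receptor 2, was abundant in every library. It had 5761, 4343 and 6338 normalized reads in Control and 6249, 6911 and 6359 in Sox9cKO. Control replicate 2 was low, and the other 5 libraries lay close together, with Control replicate 3 inside the Sox9cKO range. The log2 fold change was 0.26 with a 95% interval of -0.10 to 0.63 (limma, adjusted p 0.440), which leaves room for a rise of up to 1.55-fold or a small fall. Across the endothelial range of 22.7-fold between libraries, Vegfa varied 1.59-fold.

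The remaining VEGF genes were low. Vegfb, a ligand of VEGF receptor 1, had 111, 118 and 101 normalized reads in Control and 155, 124 and 102 in Sox9cKO (log2 fold change 0.19, limma adjusted p 0.701). Vegfc, a lymphatic growth factor that binds VEGF receptor 3, had 34.5, 32.5 and 12.7 in Control and 37.8, 29.3 and 31.7 in Sox9cKO (log2 fold change 0.41, limma adjusted p 0.668). For Vegfc, Control replicate 3 was the low sample, and the other 5 lay between 29.3 and 37.8.

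Pgf, the placental growth factor gene, had 5.04, 14.8 and 8.06 in Control and 22.9, 12.3 and 7.92 in Sox9cKO. Its log2 fold change of 0.57 had a 95% interval of -0.71 to 1.85 (limma, adjusted p 0.649). Vegfd, the other VEGF receptor 3 ligand, had 10.1, 7.42 and 5.76 in Control and 21.9, 8.51 and 4.53 in Sox9cKO, and its mean was under the minimum for testing. Vegfd had 4 to 22 reads and Pgf 6 to 23 reads per library, and the interval of Pgf includes a difference as large as that of Pdgfb. In both genes Sox9cKO replicate 1 was the highest sample.

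**Figure D2:**
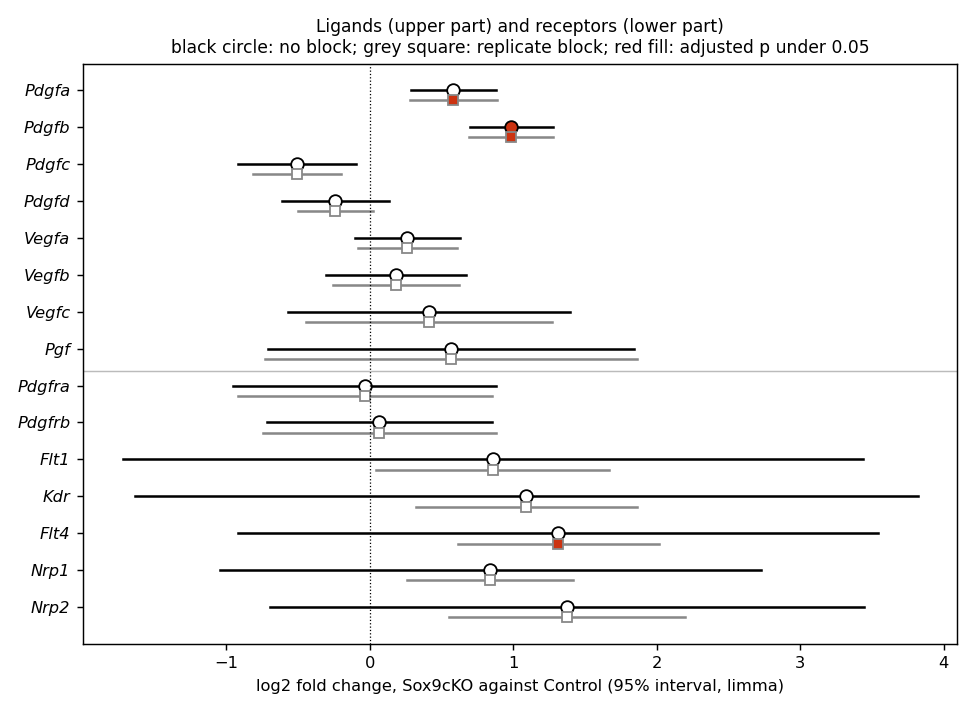
Log2 fold change of Sox9cKO against Control (horizontal axis) with 95% intervals for the 8 tested ligands and 7 tested receptor genes, without the replicate block (circles) and with it (squares). Pdgfb alone is called in both fits, Pdgfa and Flt4 with the block only, and the intervals of the endothelial receptors without the block span several units.

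Levels of different genes are comparable only per length, so normalized reads were divided by the exon length in kb. In Control the order was Vegfa (1013 to 1479 per kb), Pdgfd (405 to 575), Pdgfb (376 to 450), Pdgfc (213 to 312), Pdgfa (167 to 201), Vegfb (63.2 to 73.4), Vegfc (5.17 to 14.1), and then Pgf and Vegfd, each at 5.12 or less. Neighbours whose ranges overlapped were Pdgfd with Pdgfb, and Pgf with Vegfd. In Sox9cKO, Pdgfb (730 to 866) stood above Pdgfd (357 to 438), and Pdgfa (251 to 281) above Pdgfc (156 to 206), with no overlap in either pair.

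Read as a share of the 9 ligands per length, Vegfa made up 47.4 ± 3.42% in Control and 46.4 ± 2.44% in Sox9cKO (SD, n = 3). Pdgfb made up 15.1 ± 1.96% and 24.4 ± 1.75%, Pdgfd 17.9 ± 1.86% and 12.4 ± 1.43%, and Pdgfc 9.59 ± 1.07% and 5.52 ± 0.844%. Pdgfa made up 6.72 ± 0.731% and 8.20 ± 0.579%. The shares of these 4 PDGF genes each separated the groups without overlap, and that of Vegfa did not. Shares of 1 sum depend on each other and were not tested.

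**Figure D3:**
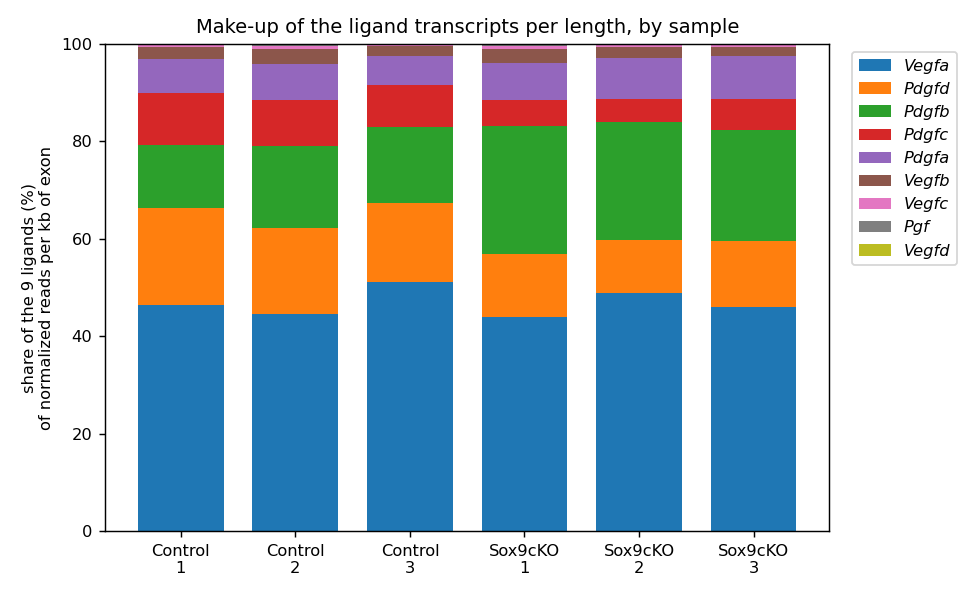
Share of each ligand (vertical axis, percent) in the summed normalized reads per kb of exon of the 9 ligands, for each of the 6 samples. Vegfa takes 44.1% to 51.2% of every library, and the Pdgfb segment is 13.0% to 16.8% in Control and 22.7% to 26.2% in Sox9cKO.

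The genes of the receptors and co-receptors, whose products bind the ligands, were next examined. Without the block, none of the 7 tested genes was called with limma, edgeR or DESeq2, and 0 had an unadjusted limma p under 0.05. Over all tested genes these shares were 2.97%, 2.86% and 7.08% called, and 17.8% at the unadjusted p. Their median log2 fold change was 0.86, against 0.036 over all tested genes. In bulk samples, fewer cells of a type and less RNA per cell cannot be told apart.

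The VEGF receptor genes varied with the endothelial markers from library to library. Kdr, which encodes VEGF receptor 2, had 2534, 7929 and 347 normalized reads in Control and 6660, 7904 and 1286 in Sox9cKO. Relative to the endothelial sum it was 20.0% to 22.1% in all 6 libraries, so it varied 1.11-fold where its own level varied 22.9-fold. Flt1 (VEGF receptor 1) was 6.80% to 10.1% of that sum and Flt4 (VEGF receptor 3) 10.6% to 20.1%. The co-receptor genes Nrp1 and Nrp2 were 9.31% to 23.1% and 5.33% to 15.9%, and both were highest relative to it in replicate 3 of each group, where endothelial markers were lowest. Pdgfb ranged from 4.17% to 108% of the endothelial sum.

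With the replicate block, Flt4 was called higher in Sox9cKO by 1.32 on the log2 scale (limma, adjusted p 0.0443), the 1 receptor gene of 7, where 5.06% of all genes were called higher with the block. It was not called by edgeR with the same block (adjusted p 0.0683). With the endothelial covariate its log2 fold change was 0.42 (limma, adjusted p 0.212). The PDGF receptor genes were scarce. Pdgfra had 39.5 to 59.4 normalized reads in Control and 32.8 to 80.6 in Sox9cKO, and Pdgfrb 47.9 to 93.7 and 53.9 to 92.5. Their log2 fold changes of -0.035 and 0.069 had limma adjusted p-values of 0.976 and 0.945, with 95% intervals of -0.95 to 0.88 and -0.72 to 0.85. Pdgfrl, a receptor-like gene, stayed at 7.96 or less in every library and was not tested.

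**Figure D4:**
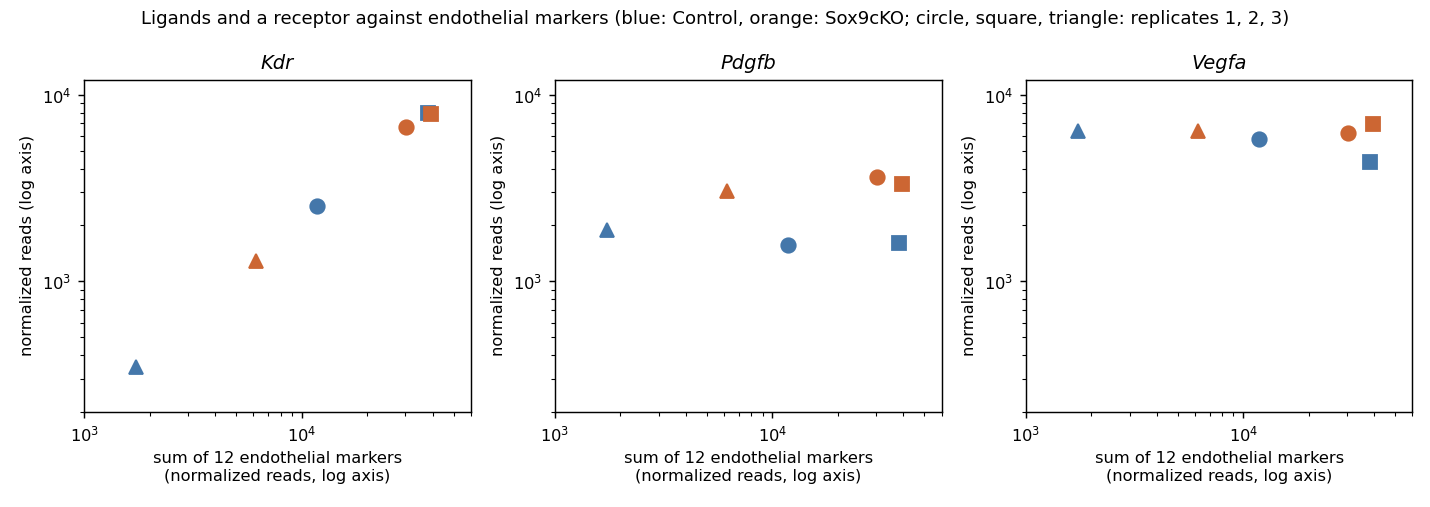
Normalized reads of Kdr, Pdgfb and Vegfa (vertical log axes) against the sum of 12 endothelial markers (horizontal log axis), 1 point per sample. Kdr rises along the marker sum from 347 to 7929. Pdgfb is 1564 to 1873 in Control, at marker sums of 1736 to 38204. It is 3037 to 3602 in Sox9cKO, at marker sums of 6165 to 39492.

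Genes that cut or release these ligands held more calls. Of 12 tested genes for ligand activation and matrix release, 3 were called, all higher in Sox9cKO (2.03% of all genes were), and their median log2 fold change was 0.45. Plg encodes plasminogen, the precursor of the protease that plasminogen activators produce. It had 146, 120 and 74.9 normalized reads in Control and 1025, 847 and 1224 in Sox9cKO, a rise of 3.21 on the log2 scale (limma, adjusted p 0.00319). Exons of Plg overlap Slc22a3 on the opposite strand, and Plg is also a plasma protein gene of hepatocytes.

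Pcsk6, a proprotein convertase gene, rose from 26.1, 26.9 and 28.8 in Control to 97.5, 114 and 135 in Sox9cKO (log2 fold change 2.03, limma adjusted p 0.00553). Its exons overlap Gm45213 on the same strand, so their reads may not be separated. Plau encodes urokinase, an activator of PDGF-D. It had 242, 598 and 300 normalized reads in Control and 1244, 1349 and 1179 in Sox9cKO, with Control replicate 2 above the other Control samples and well below the Sox9cKO range. Its log2 fold change was 1.83 (limma, adjusted p 0.0277), and the adjusted p was 0.0800 to 0.105 in 5 of the 6 fits that left out 1 sample, all but that without Control replicate 2. It was 0.0623 in limma without the intensity trend.

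Plat, which encodes tissue plasminogen activator, the activator of PDGF-C, was named after its values were seen. It had 1312, 2744 and 3337 normalized reads in Control and 5126, 7509 and 10160 in Sox9cKO, with no overlap. At a log2 fold change of 1.67, the limma adjusted p was 0.0721 without the block and 0.00123 with it. With the block, 7 of the 12 genes were called, 6 higher and 1 lower (5.06% and 2.99% of all genes). The lower one was Pcsk5, a convertase gene, which differed by -1.31 on the log2 scale (limma, adjusted p 0.0963; with the block 0.0127). Pcsk5, Furin and St14 were also named after their values were seen. Furin and St14, which encode the convertase furin and matriptase, had log2 fold changes of 0.29 and 0.27 and were called in neither fit (limma, adjusted p 0.208 and 0.252).

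The hepatocyte markers were examined beside Plg. Their summed level, mostly Alb, was 22690 to 35427 normalized reads in Control and 30146 to 46007 in Sox9cKO. Alb itself was not called (limma, adjusted p 0.380). Of 11 tested, 2 were called, Serpina1a and Tat, both higher (2.03% of all tested genes were). Log2 fold changes were above 0 for 8 of the 11 and below 0 for 3 (Ttr, Apoa2 and Fabp1). Their median was 0.37, against 0.036 over all tested genes. With limma and the block 3 of 11 were called (8.05% of all), and 3 with DESeq2 (7.08%). Their part in the rise of Plg was not tested.

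Hypoxia sensing, a main control of Vegfa transcription, was represented by 20 genes, all tested. A single gene was called (2.97% of all tested genes were, so a count near that background), Pfkfb3, which encodes a regulator of glycolysis. It rose from 1990, 2354 and 2120 normalized reads in Control to 4324, 3789 and 5278 in Sox9cKO (log2 fold change 1.04, limma adjusted p 0.0137), and was not called without Control replicate 1 or without Control replicate 3 (limma, adjusted p 0.0789 and 0.0629). The median log2 fold change of the 20 genes was 0.21. Other members of the list, named after their values were seen, were not called: Hif1a and Epas1, the oxygen-regulated transcription factors, at 0.22 and 0.21, and the glucose transporter gene Slc2a1 at 0.099 (limma, adjusted p 0.286, 0.717 and 0.842).

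Among 17 tested angiogenic factors and receptors of other families, 2 were called, 1 in each direction (2.03% and 0.939% of all genes were called higher and lower). Angptl4, a secreted inhibitor of lipoprotein lipase, rose from 159, 121 and 128 to 386, 342 and 391 normalized reads (log2 fold change 1.46, limma adjusted p 0.00609). Angpt1, which encodes the agonist of the endothelial receptor Tie2, fell from 793, 592 and 681 to 323, 218 and 340 (log2 fold change -1.24, limma adjusted p 0.0257). Angpt1 exons overlap Gm17473 on the opposite strand. Angpt1 was not called without Control replicate 1, Control replicate 3 or Sox9cKO replicate 1 (limma, adjusted p 0.122, 0.0953 and 0.0563). The median of this list, 0.71, includes the endothelial genes Tek and Tie1 (named after their values were seen), which were not called (limma, adjusted p 0.629 and 0.682) and spread as widely over the libraries as Kdr did.

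**Figure D5:**
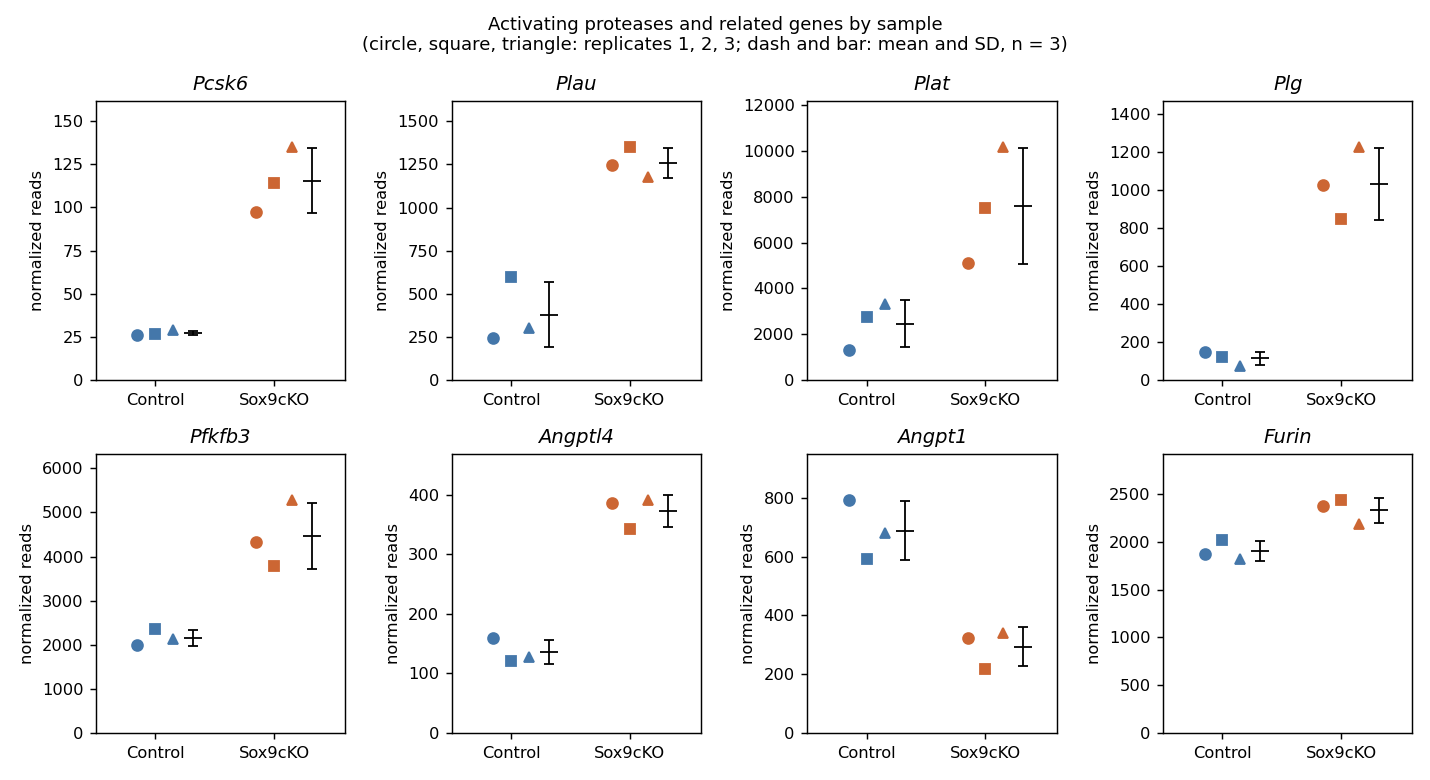
Normalized reads (vertical axes, linear from 0) of genes for ligand activation and of Pfkfb3, Angptl4 and Angpt1 in the 3 Control and 3 Sox9cKO samples, with mean and SD. The groups do not overlap in any panel, and Angpt1 is the gene shown with lower values in Sox9cKO (218 to 340 against 592 to 793). Plat and Furin were named after their values were seen. Of the 12 tested activation genes, groups do not overlap for 7 with higher and 2 with lower values. Pcsk5, 1 of these 2, is not shown. Over all tested genes these shares are 13.4% and 10.8%.

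The genes whose levels tracked Pdgfb most closely over the 6 samples were Wnt7b, Apoh and Polr3c, with Pearson correlations of 0.998, 0.996 and 0.996 on the log2 scale. These 6 samples share 1 group difference, and 670 tested genes had a correlation of at least 0.9, so the values describe likeness only. Wnt7b, which encodes a Wnt ligand, had 467, 483 and 601 normalized reads in Control and 1620, 1436 and 1371 in Sox9cKO. As for Pdgfb, Control replicate 3 was the highest Control sample and Sox9cKO replicate 3 the lowest Sox9cKO sample. Apoh (beta-2-glycoprotein I) had 26.1, 26.0 and 32.3 in Control and 85.6, 67.1 and 62.3 in Sox9cKO, and Polr3c (a subunit of RNA polymerase III) 212, 219 and 225 against 323, 313 and 298.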

How the data were processed

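RNA of 3 Control and 3 Sox9cKO samples had been sequenced after library preparation with a stranded total RNA kit for low input (SMARTer Pico), per the labels' protocols. The submitters' processing notes name DESeq2 1.36.0 and build GRCm39. The aligner, the counting program and the annotation are not given in the sources used here. The authors deposited a signal per gene, namely gene counts divided by 1 size factor per sample (0.868 to 1.19). Every value (100%) was a whole multiple of a step of its sample (tolerance 0.001 reads), which gave the reads back, 11883496 to 16191990 per sample. Each column's header number stands in 1 sample title, which set its sample.

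Values were tested as log2(value + 1), from genes with a mean of at least 10, with limma 3.58.1 in R 4.3.3 (intensity trend, two-sided, Benjamini-Hochberg over all tested genes, threshold 0.05). The pseudocount understates changes of genes with few reads. Titles number the replicates 1 to 3 in each group. Same-numbered samples deviated together (correlations across genes of 0.207, 0.472 and 0.542), so the fit with that number as a block is given where it changes a call. Alternatives were edgeR 4.0.16 and DESeq2 1.42.0 on the recovered reads, other pseudocounts (0.1 and 5), no filter or a higher one (mean of 50), TMM and quantile scaling, no trend, covariates for endothelial markers and Xist, and leaving out each sample. The scripts were tested on simulated reads.

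Exon length is the union of exons in GENCODE M21 (GRCm38), matched by gene identifier for 24815 rows. Promoter windows came from RefSeq on GRCm38.p6, matched by symbol. The members, gene lists and tests were chosen with earlier results of these data known. The genes named are the 9 ligands, all receptors, at most 6 called genes per other pathway list by p-value, and the 3 genes most correlated with each called ligand. Genes outside this rule are marked as named after their values were seen, apart from Sox9 and the cell type markers.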

Additional observations from a re-analysis of the deposited data

How the results depend on the processing

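The calls and the named ligand and pathway genes were recomputed under 13 alternatives and in 6 fits that each left out 1 sample, as far as a gene passed the filter. Cell type markers were followed only with the replicate block, edgeR, DESeq2 and the endothelial covariate. Correlations with Pdgfb and ratios were not recomputed. Pdgfb stayed higher in all 19, at log2 fold changes of 0.91 to 1.07, and was not called in 1 of them, without Control replicate 1. Pdgfa stayed higher (0.47 to 0.67) and was called with the replicate block and with DESeq2, and Pdgfc stayed lower (-0.64 to -0.36) and uncalled. The number of called ligands was therefore 2 rather than 1 with limma and the replicate block and with DESeq2, and 0 to 1 over the fits without 1 sample. Over all genes 510 were called. The number was 1381 with limma and the replicate block, 1160 with edgeR and the replicate block and 1214 with DESeq2. It was 200 to 389 when 1 sample was left out, in fits that also had fewer samples. The cause of the other differences was not tested.

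Of the receptors, 1 was called with limma and the replicate block and 0 in the fits without 1 sample. Of the activation genes, 7 were called with limma and the replicate block, 6 with edgeR and the replicate block, 5 with DESeq2 and 2 to 4 without 1 sample. The hypoxia list had 0 to 1 calls without 1 sample. The list of other angiogenic factors had 1 call without the intensity trend and 1 with the Xist covariate, and 1 to 2 without 1 sample.

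Genes that were never called changed sign as follows (log2 fold changes). Pdgfra was 0.020 with edgeR, 0.026 with DESeq2 and 0.074 with the Xist covariate, and -0.44 to 0.19 without 1 sample. Pdgfrb was -0.0073 with quantile normalization and -0.058 with the endothelial covariate, and -0.17 to 0.35 without 1 sample. With the endothelial covariate Flt1 was -0.18 and Kdr -0.014, and without 1 sample they ranged from -0.22 to 1.91 and from -0.14 to 2.12. Vegfc ranged from -0.030 to 0.66 and Slc2a1 from -0.076 to 0.27 without 1 sample. No result of an alternative is given for Vegfd, which was not tested in the main fit. At a minimum mean of 50, Vegfc, Pgf and Pdgfra were not tested, nor was Pgf without Sox9cKO replicate 1. Vegfd and Pgf rest on few reads.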
